A study of Mus musculus with 10 samples.

Results

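The 8 genes described here are Hmgcs1, Idi1, Fdft1, Sqle, Lss, Cyp51, Insig1 and Srebf2, a set of cholesterol synthesis enzymes and sterol sensors chosen by name. All 8 were found among the 21877 gene symbols of the deposited count table, and all 8 passed the filter on low counts that left 15385 genes tested. They were followed in RNA of the peritoneum, the membrane that lines the abdominal cavity, of male C57BL/6 mice. Mice with both copies of Mr1 (Mr1+/+) or with neither (Mr1-/-) were injected intraperitoneally for 6 weeks with phosphate-buffered saline (PBS) or with 4.25% peritoneal dialysis (PD) fluid. Mr1 encodes the protein that presents microbial metabolites to mucosal-associated invariant T cells. The groups were Mr1+/+ PBS with 3 libraries, Mr1+/+ PD fluid with 3, Mr1-/- PBS with 2 and Mr1-/- PD fluid with 2. The labels do not state how many mice stand behind a library. P-values thus weigh a group difference against the scatter of these samples, and that scatter may be technical only.

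Animal cells make cholesterol from acetyl-CoA through mevalonate, isoprenoids, squalene and a series of ring-containing sterols. The genes of this route are transcribed under SREBP2, the product of Srebf2, a membrane-bound precursor that its escort Scap carries from the endoplasmic reticulum to the Golgi, where it is cut into an active factor. When sterols are plentiful, Insig proteins hold Scap in the endoplasmic reticulum, and when sterols run low the complex is released. Insig1 is itself a target gene of SREBP factors. Fat cells, which are plentiful in the abdominal cavity, store cholesterol beside triglyceride, and macrophages take it up with the lipids they clear.

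The label check came first. Across the 6 libraries of Mr1+/+ mice Mr1 had between 324 and 524 counts, and across the 4 of Mr1-/- mice between 29 and 39, so the ranges did not overlap. Total counts were 14145635 to 16335799 per library. Within groups, Mr1+/+ PBS replicates 1 and 2 had a chi-square per gene of 2.23 between their counts and Mr1-/- PD fluid replicates 1 and 2 had 1.74, against 18.6 to 118 for the other 6 within-group pairs. Each near-identical pair was summed and counted as 1 sample, which left 8 samples, with n = 2, 3, 2 and 1 in the order of groups above. Mr1+/+ PBS replicate 3 stood apart in another way: it had summed levels of 2625 CPM (counts scaled to library size) for 12 intestinal epithelium markers and 31672 CPM for 12 pancreatic acinar markers, where the other 9 libraries had 29.1 to 39 CPM for the former list. Acinar markers were not particular to it: they summed to 181 to 4703 CPM in Mr1+/+ PD fluid, 340 to 814 in Mr1-/- PBS and 6382 to 6515 CPM in the Mr1-/- PD fluid libraries. Of the mesothelial markers that define the lining itself, Msln was at 8.43 to 52.2 CPM and Upk3b at 26.1 to 185 CPM, with neither at 0 in any library. In whole tissue, fewer cells of a type and less RNA per cell cannot be told apart.

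The stretches of DNA just before the genes are shown first, because SREBP factors act there. RefSeq (GRCm38.p6) gave a promoter for 6 of the 8 genes, Hmgcs1, Idi1, Lss, Cyp51, Insig1 and Srebf2, and the 250 bases before each start were searched on both strands. The letters TCACNCCAC, a form of the sterol regulatory element that SREBP binds, occurred in 1 of the 6 (Hmgcs1) and in 1.05% of 32851 promoters searched alike. CCAAT, the box bound by NF-Y, occurred in 6 of 6, against 33.9% of all promoters. In Idi1 and Cyp51 these boxes begin at most 45 and 29 bases before the RefSeq start, inside the gene as GENCODE annotates it. GGGCGG, a box bound by Sp1, was also in 6 of 6, against 32.7%, and that of Idi1 (69 to 64 bases before the start) lies inside the GENCODE gene too. CACGTG, an E-box, was in 1 of 6 (Insig1), against 6.02%. The capitals below mark TCACNCCAC and CCAAT, the latter read as ATTGG where it lies on the other strand, and the sequences run 5′ to 3′ on the strand of the gene. They are given for the 3 genes on which most of the results turn: the 2 that passed the test and the gene of the transcription factor. The Insig1 and Srebf2 stretches stop before the first annotated transcript in GENCODE.
Hmgcs1, chr13:119690101-119690350, plus strand: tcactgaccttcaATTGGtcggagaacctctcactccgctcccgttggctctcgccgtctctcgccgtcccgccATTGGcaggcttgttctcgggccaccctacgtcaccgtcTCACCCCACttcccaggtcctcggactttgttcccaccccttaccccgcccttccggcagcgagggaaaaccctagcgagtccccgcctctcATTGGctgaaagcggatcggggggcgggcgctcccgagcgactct
Insig1, chr5:28071162-28071362, plus strand: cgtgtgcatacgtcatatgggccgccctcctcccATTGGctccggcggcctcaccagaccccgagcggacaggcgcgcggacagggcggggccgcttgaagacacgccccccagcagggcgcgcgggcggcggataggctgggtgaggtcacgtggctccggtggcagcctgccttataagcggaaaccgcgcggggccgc
Srebf2, chr15:82147019-82147180, plus strand: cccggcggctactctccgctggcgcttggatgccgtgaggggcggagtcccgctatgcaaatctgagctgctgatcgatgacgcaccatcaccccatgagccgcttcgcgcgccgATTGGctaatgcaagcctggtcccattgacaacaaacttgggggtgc
The match to the sterol regulatory element in Hmgcs1 lies 137 to 129 bases before the start, between CCAAT boxes. The other 5 promoters have no such match in this window, which says only that these exact letters are not in it.

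The members differed widely in how strongly they were expressed. Levels between genes were compared as CPM per kilobase of exon, as mean ± SD over the 8 samples. Insig1 came highest at 49.2 ± 25.4 and Srebf2 next at 42.9 ± 9.07, with ranges of 26.5 to 89.8 and 31.0 to 59.9 that overlap. Hmgcs1, which makes the HMG-CoA that feeds the mevalonate route, followed at 15.3 ± 6.10 (8.21 to 26.8), so that its highest sample lay below the lowest of Srebf2. Cyp51, the lanosterol demethylase, was at 13.8 ± 2.79 (10.1 to 17.5) and Fdft1, the squalene synthase, at 10.8 ± 2.26 (7.91 to 13.7). The range of each overlapped those of its neighbours in the order. Within each of the 8 samples, however, Cyp51 lay above Fdft1. Idi1, the isomerase of the isoprenoid building block, was at 6.25 ± 2.22 and Sqle, the squalene epoxidase, at 5.06 ± 0.91, with overlapping ranges. Lss, the cyclase that closes the sterol rings, was lowest at 2.56 ± 0.25, with every sample (2.18 to 2.86) below every sample of Sqle (3.51 to 6.11). With the longest transcript as the length instead of all exons, Srebf2 (60.6) and Insig1 (56.4) changed places and the order of the other 6 stayed as given. The spread across samples was itself unequal: the highest sample was 3.38 times the lowest for Insig1, 3.27 times for Idi1 and 3.26 times for Hmgcs1, and 1.31 times for Lss.

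**Figure D1:**
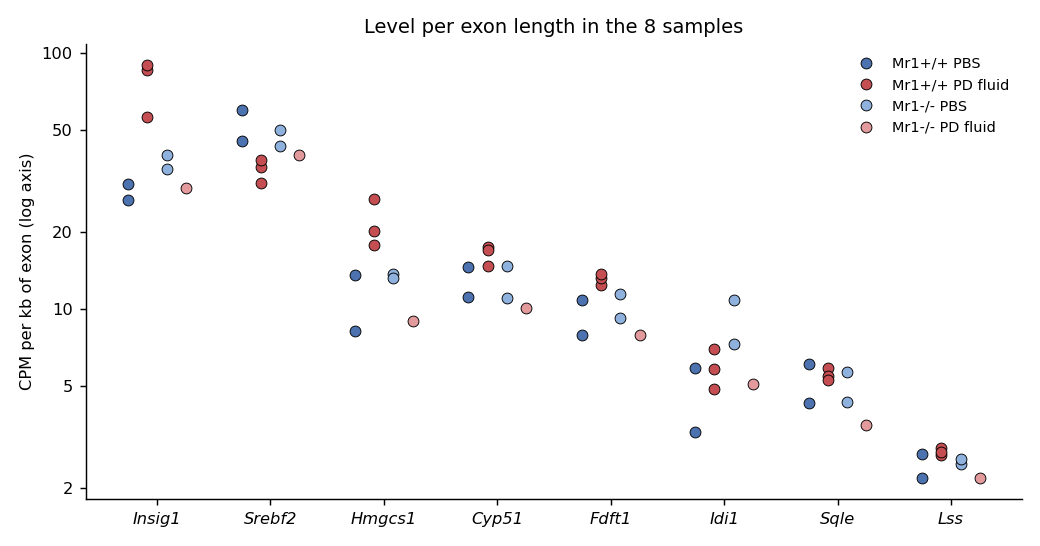
Level of each gene as CPM per kilobase of exon on a log axis, with 1 point per sample (8 samples) and the groups by colour. Insig1 and Srebf2 have higher means (49.2 and 42.9) than the 6 enzymes, and the points of Insig1, Hmgcs1 and Idi1 are spread most widely.

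The main comparison asked what 6 weeks of PD fluid did in Mr1+/+ peritoneum. Insig1 and Hmgcs1 rose, the sensor by 2.69-fold and the enzyme by 1.98-fold, and the other 6 members did not pass the test. Of the 8 members, 2 were called higher and 0 lower at a Benjamini-Hochberg adjusted p of 0.05 over all genes tested, where 8.49% of all genes tested were called higher and 6.37% lower. The fitted log2 fold change was above 0 for 7 of 8 members, with a median of 0.36, against 46.1% of all genes tested and a median of -0.057. In 5 of 8 members the Mr1+/+ samples on PD fluid and on PBS did not overlap, as was the case for 50.7% of all genes tested, while 14.9% of all genes were called in either direction.

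Insig1 had 83.9, 80.6 and 95.2 CPM in Mr1+/+ PBS replicates 1 to 3 and 174, 266 and 279 CPM in Mr1+/+ PD fluid replicates 1 to 3. Every library on PD fluid was above every library on PBS, and PD fluid replicate 1 was the lowest of its group. The means were 88.6 ± 9.15 CPM (SD, n = 2) and 239 ± 56.6 CPM (SD, n = 3), a log2 fold change of 1.43 (SE 0.22, edgeR quasi-likelihood adjusted p = 0.0124). The gene lies at chr5:28071363-28078662 (mm10, plus strand, GENCODE M21, ENSMUSG00000045294.11), and no other gene's exons overlap it on either strand.

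Hmgcs1 had 38.8, 36.7 and 62.5 CPM in the 3 Mr1+/+ PBS libraries and 81.8, 92.6 and 123.5 CPM in the 3 on PD fluid. The groups did not overlap, and replicate 3 was the highest library in each. The means were 50.1 ± 17.5 CPM (SD, n = 2) and 98.8 ± 21.6 CPM (SD, n = 3), a log2 fold change of 0.98 (SE 0.25, adjusted p = 0.0391). Hmgcs1 lies at chr13:119690379-119708260 (plus strand, ENSMUSG00000093930.2), and the exons of the antisense gene Gm48342 overlap it. The library protocol names no step that marks strand, so reads of the pair could not be told apart, and the same holds for Idi1 with Gm48574, Fdft1 with Ctsb, Lss with 4930483K19Rik and Cyp51 with Akap9.

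**Figure D2:**
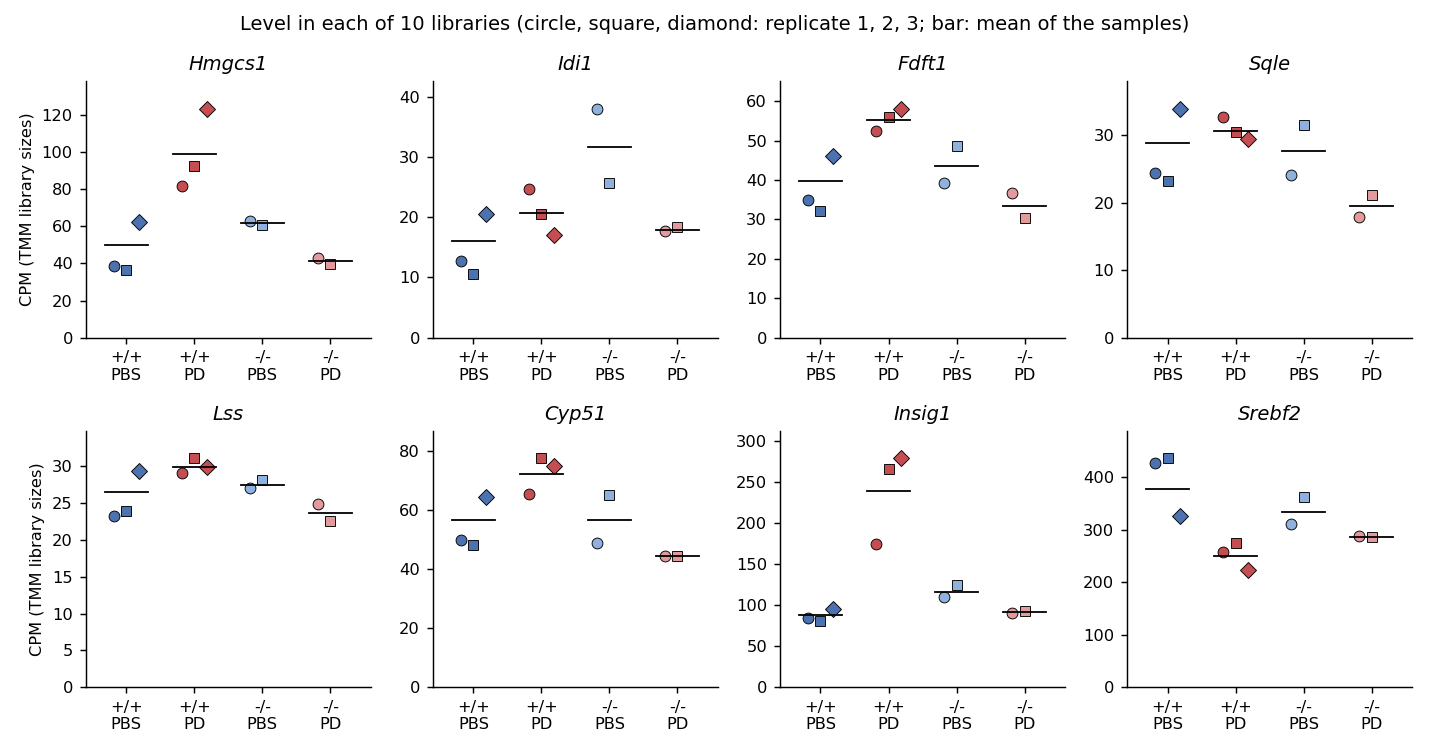
CPM of each gene in each of the 10 libraries, with 1 panel per gene, the 4 groups on the x axis and a bar at the mean of the samples of a group. In Mr1+/+, Insig1 and Hmgcs1 lie higher on PD fluid than on PBS in every library (174 to 279 against 80.6 to 95.2 CPM for Insig1), and in Mr1-/- every member lies lower on PD fluid than in either PBS library.

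The isoprenoid enzyme Idi1 (chr13:8885501-8892451, plus strand, ENSMUSG00000058258.14) did not pass the test, and its difference from Hmgcs1 was not tested. Its Mr1+/+ libraries had 12.7, 10.5 and 20.5 CPM on PBS and 24.6, 20.6 and 17.05 CPM on PD fluid. The groups overlapped, since PBS replicate 3 lay above PD fluid replicate 3. The log2 fold change was 0.37 (SE 0.30, adjusted p = 0.40).

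None of the 4 enzymes of the squalene and ring steps passed the test. Fdft1 (chr14:63145150-63179578, minus strand, ENSMUSG00000021273.10), which joins farnesyl units into squalene, had 34.8, 32.2 and 46.0 CPM on PBS and 52.5, 55.9 and 58.1 CPM on PD fluid. Its groups did not overlap, and its log2 fold change was 0.48 (SE 0.18, adjusted p = 0.105). Cyp51 (chr5:4081145-4104746, minus strand, ENSMUSG00000001467.5) had 49.9, 48.3 and 64.4 CPM against 65.4, 77.6 and 75.1 CPM, with PBS replicate 3 just below the lowest library on PD fluid. The log2 fold change of Cyp51 was 0.35 (SE 0.18, adjusted p = 0.21).

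Sqle and Lss showed the smallest differences. Sqle (chr15:59315077-59331192, plus strand, ENSMUSG00000022351.14), which adds the oxygen that later becomes the sterol hydroxyl group, had 24.5, 23.3 and 34.0 CPM on PBS and 32.7, 30.4 and 29.4 CPM on PD fluid. The groups overlapped, with PBS replicate 3 the highest of the 6 libraries, and the log2 fold change was 0.091 (SE 0.20, adjusted p = 0.78). Lss (chr10:76531588-76557138, plus strand, ENSMUSG00000033105.12) had 23.3, 23.8 and 29.3 CPM against 29.1, 31.0 and 29.8 CPM, a log2 fold change of 0.18 (SE 0.16, adjusted p = 0.45). The PBS replicate 3 of Lss was inside the range of the libraries on PD fluid.

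Srebf2 (chr15:82147181-82205379, plus strand, ENSMUSG00000022463.8) was the member with a negative fold change. It had 426, 436 and 326 CPM in Mr1+/+ PBS libraries and 257, 274 and 224 CPM on PD fluid, with every library on PD fluid below every library on PBS. The means were 378 ± 74.6 CPM (SD, n = 2) and 251 ± 25.5 CPM (SD, n = 3). The log2 fold change of -0.59 (SE 0.17, adjusted p = 0.0546) missed the threshold. The gene of the factor and the genes of its sensor Insig1 and target Hmgcs1 thus had fitted changes of opposite sign, 2 of the 3 past the test. With a score over adipocyte markers as a covariate, Srebf2 was at 0.34 (SE 0.54) and Hmgcs1 at -0.59 (SE 0.62), so both signs turned.

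The calls for Insig1 and Hmgcs1 depended on single libraries. Without Mr1+/+ PD fluid replicate 3 no gene tested was called, and Insig1 stood at 1.30 (adjusted p = 0.058) and Hmgcs1 at 0.79 (adjusted p = 0.119). Hmgcs1 also missed the threshold without Mr1+/+ PD fluid replicate 2 (1.05, adjusted p = 0.085) and without Mr1-/- PBS replicate 1 or 2 (0.98 in each, adjusted p = 0.056 and 0.055). Without Mr1+/+ PBS replicate 3, the library with gut and pancreas markers, 4 members passed: Insig1, Hmgcs1, Fdft1 at 0.72 (adjusted p = 0.039) and Srebf2 at -0.78 (adjusted p = 0.025). With the near-identical Mr1+/+ PBS libraries left out instead, Hmgcs1 was at 0.68 (adjusted p = 0.123). Fitted values of the other members were also farther from 0 without Mr1+/+ PBS replicate 3, at 0.84 for Idi1, 0.56 for Cyp51, 0.37 for Sqle and 0.34 for Lss, none of these called. Insig1 and Hmgcs1 kept a positive sign in each of these fits.

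Markers of other cells moved in the same comparison. Of 19 adipocyte markers tested, 15 rose in Mr1+/+ on PD fluid, with a median log2 fold change of 1.56. Their summed level was 6931 to 8658 CPM in Mr1+/+ PBS, 20059 to 29083 in Mr1+/+ PD fluid, 9056 to 13074 in Mr1-/- PBS and 11239 to 11345 CPM in Mr1-/- PD fluid, highest in Mr1+/+ PD fluid as for Insig1 and Hmgcs1. Adipoq, which defines the cell type, was at 354 to 479, 1182 to 1650, 406 to 646 and 555 to 568 CPM in the same groups, and at 0 in none. With an adipocyte score as a covariate, the log2 fold change was 0.55 (SE 0.69, adjusted p = 1) for Insig1 and -0.59 (SE 0.62, adjusted p = 1) for Hmgcs1, against standard errors of 0.22 and 0.25 without it. The other 6 lay between -0.63 (Idi1) and 0.34 (Srebf2), none called. The score was 7.14 and 7.56 in the Mr1+/+ PBS samples and 8.66, 8.95 and 9.07 in the Mr1+/+ PD fluid samples. The score thus separated the groups compared, and this fit can hardly tell it from PD fluid. The share of these results that goes with fat cells was not tested. Of 10 B cell markers 9 fell, with Pax5 at 293 to 444 CPM on PBS and 95.4 to 135 CPM on PD fluid in Mr1+/+, and the cell cycle list had 9 of 15 genes lower. Called higher were 11 of 12 fibroblast, 6 of 10 endothelial, 5 of 10 macrophage and 3 of 5 erythroid markers, and called lower 4 of 10 T cell markers. The highest group was not particular to fat. Summed fibroblast (4512 to 5806 CPM), endothelial (2028 to 2578), macrophage (1158 to 1412) and erythroid markers (85.2 to 241) were also highest in Mr1+/+ PD fluid. No score over these lists was fitted. The part of these cells in the values of Srebf2 or the enzymes was not tested.

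In Mr1-/- mice the same comparison called no member. All 8 members had a fitted log2 fold change below 0, with a median of -0.37, where the median of all genes was -0.015 and 46.7% of all genes were above 0. Not 1 of the 15385 genes was called (0%), and edgeR gave an unadjusted p under 0.05 for 231 genes and for 0 members, while DESeq2 called 11 genes and 0 members. The PD fluid group is here 1 sample, whose spread the fit borrows from the other groups. Markers of other cells differed in it too, none of them called: the fitted fold changes were above 0 for 12 of 12 acinar markers (median 3.45), 12 of 12 mesothelial markers (median 1.07) and 12 of 12 fibroblast markers (median 0.85, 6 with an unadjusted p under 0.05). Mesothelial markers summed to 95.6 to 242 CPM in Mr1-/- PBS and 385 to 408 CPM in Mr1-/- PD fluid, and fibroblast markers to 1508 to 2057 and 3089 to 3094 CPM. For the 19 adipocyte markers, 11 fitted changes were above 0 and 8 below, with a median of 0.045. The part of any of these cells in the values of the members was not tested.

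Insig1 had 109 and 124 CPM in Mr1-/- PBS and 90.5 and 93.1 CPM in the near-identical Mr1-/- PD fluid libraries, a log2 fold change of -0.35 (SE 0.29, adjusted p = 1). Hmgcs1 had 63.1 and 60.8 CPM against 42.7 and 40.0 CPM (-0.58, SE 0.34). Idi1 had 38.04 and 25.7 CPM against 17.6 and 18.3 CPM (-0.82, SE 0.40), the most negative value of the 8. In each of these 3 genes the libraries on PD fluid lay below those on PBS.

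Fdft1 had 39.1 and 48.6 CPM on PBS and 36.6 and 30.5 CPM on PD fluid in Mr1-/- (log2 fold change -0.38, SE 0.24), and Sqle had 24.1 and 31.5 against 17.9 and 21.2 CPM (-0.50, SE 0.27). Cyp51 had 48.9 and 65.1 CPM against 44.6 CPM in both libraries on PD fluid (-0.35, SE 0.25), and Lss had 27.0 and 28.1 against 24.9 and 22.5 CPM (-0.21, SE 0.21). Srebf2 had 311 and 362 CPM against 288 and 287 CPM (-0.22, SE 0.24). The PD fluid sample lay below both PBS samples in 8 of 8 members, none of them called, beside 0% of all genes called. Of all genes, 56.7% did not overlap in this comparison, 27.9% with the PD fluid sample lower.

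Under PBS alone, the genotypes differed in no member by the test. Idi1 showed the widest gap: 10.5 to 20.5 CPM in the Mr1+/+ libraries and 25.7 and 38.04 CPM in the Mr1-/- libraries, without overlap. Its log2 fold change, Mr1-/- against Mr1+/+, was 0.99 (SE 0.32, unadjusted p = 0.0152, adjusted p = 0.57), and it was the 1 member with an unadjusted p under 0.05 in edgeR, where 1329 of all genes had one. Insig1 also did not overlap, with 80.6 to 95.2 CPM against 109 and 124 CPM (0.39, SE 0.23, adjusted p = 0.61). The other 6 members overlapped and lay between -0.18 (Srebf2) and 0.30 (Hmgcs1) on the log2 scale. Groups without overlap were thus seen in 2 of 8 members and in 38.6% of all genes. The share of all genes called was 0.013%, and DESeq2 called 0 members and 211 genes. The genotypes also differed in Alb, a defining gene of hepatocytes, which make much of the body's cholesterol: it was at 0.19 to 0.49 CPM in Mr1+/+ PBS, 0.81 to 2.18 in Mr1+/+ PD fluid, 64.4 to 105.5 in Mr1-/- PBS and 105.4 to 108.9 CPM in Mr1-/- PD fluid. Apoa1, the other defining gene, was at 0 in 1 library of each Mr1+/+ group and at 5.44 to 9.87 CPM in Mr1-/-, with 141.7 CPM in the Mr1+/+ PBS library with gut markers. The 16 hepatocyte markers summed to 1512 to 1667, 3359 to 5012, 1958 to 2376 and 1965 to 1984 CPM in the 4 groups in that order. Cyp2e1, which fat tissue also expresses, made up most of each sum, with means of 1449, 4392, 2014 and 1790 CPM. Under PBS, the fitted Mr1-/- against Mr1+/+ change was above 0 for 10 of 15 hepatocyte markers tested and below 0 for 5. The median was 1.48, the lowest value was -4.14, and 1 marker was called. Under PD fluid 14 of the 15 hepatocyte markers tested were above 0 in the fitted Mr1-/- against Mr1+/+ change, with a median of 6.19 and 1 called. The part of hepatocyte RNA in the values of the members was not tested.

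Under PD fluid, the fitted Mr1-/- against Mr1+/+ change was below 0 in 7 of 8 members, but edgeR called none of them. Insig1 was at 90.5 and 93.1 CPM against 174 to 279 CPM, a log2 fold change of -1.38 (SE 0.29, adjusted p = 0.145). Hmgcs1 was at 42.7 and 40.0 CPM against 81.8 to 123.5 CPM (-1.26, SE 0.34, adjusted p = 0.152). Fdft1 was at -0.72 (SE 0.23, adjusted p = 0.179), Cyp51 at -0.70 (SE 0.24, adjusted p = 0.189) and Sqle at -0.66 (SE 0.26, adjusted p = 0.230). Lss (-0.34, SE 0.20) and Idi1 (-0.21, SE 0.37) were nearer to 0, and Srebf2 was the member on the positive side (0.19, SE 0.22). The Mr1-/- sample of Srebf2 lay above every Mr1+/+ sample, and that of Idi1 lay within the Mr1+/+ range. The groups did not overlap in 7 of 8 members, all but Idi1, beside 0.013% of all genes called and 70% of all genes without overlap. The median of the members was -0.68 and that of all genes 0. Fitted changes were also below 0 for 19 of 19 adipocyte (median -1.07), 12 of 12 fibroblast (-0.89) and 10 of 10 endothelial markers (-0.77). They were above 0 for 10 of 10 B cell (0.93) and 10 of 10 T cell markers (0.62). Over 17 other settings Hmgcs1 ran from -1.38 to -0.15 and Insig1 from -1.57 to -0.77. The part of these cells in the values of the members was not tested.

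This comparison uses the same 3 Mr1+/+ PD fluid samples as the one within Mr1+/+, so the 2 sets of values are not separate evidence. An unadjusted p under 0.05 was found for 5 of 8 members and for 2932 of all genes. DESeq2 called 2 members, Hmgcs1 at -1.27 (adjusted p = 0.0045) and Insig1 at -1.39 (adjusted p = 0.00022), among 1036 genes, and edgeR fitted on only the 2 groups compared also called 2.

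The interaction term tested the difference between genotypes in the effect of PD fluid directly. It was -1.78 (SE 0.37, unadjusted p = 0.00122, adjusted p = 0.266) for Insig1 and -1.56 (SE 0.43, unadjusted p = 0.0063, adjusted p = 0.272) for Hmgcs1, on the log2 scale. Idi1 stood at -1.20 (SE 0.50, adjusted p = 0.365), Fdft1 at -0.86 (SE 0.30, adjusted p = 0.319) and Cyp51 at -0.70 (SE 0.31, adjusted p = 0.381). Sqle (-0.60, SE 0.34), Lss (-0.39, SE 0.26) and Srebf2 (0.37, SE 0.29) completed the set. No member and no gene was called (0%), with an unadjusted p under 0.05 for 4 of 8 members and for 2037 genes. DESeq2 called 488 genes and 2 members, Insig1 (-1.78, adjusted p = 0.00051) and Hmgcs1 (-1.57, adjusted p = 0.0148). With the adipocyte score as a covariate the interaction was -0.92 (SE 0.72) for Insig1 and -0.034 (SE 0.64) for Hmgcs1. Both tools used the same 8 samples, with 1 sample of Mr1-/- on PD fluid.

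**Figure D3:**
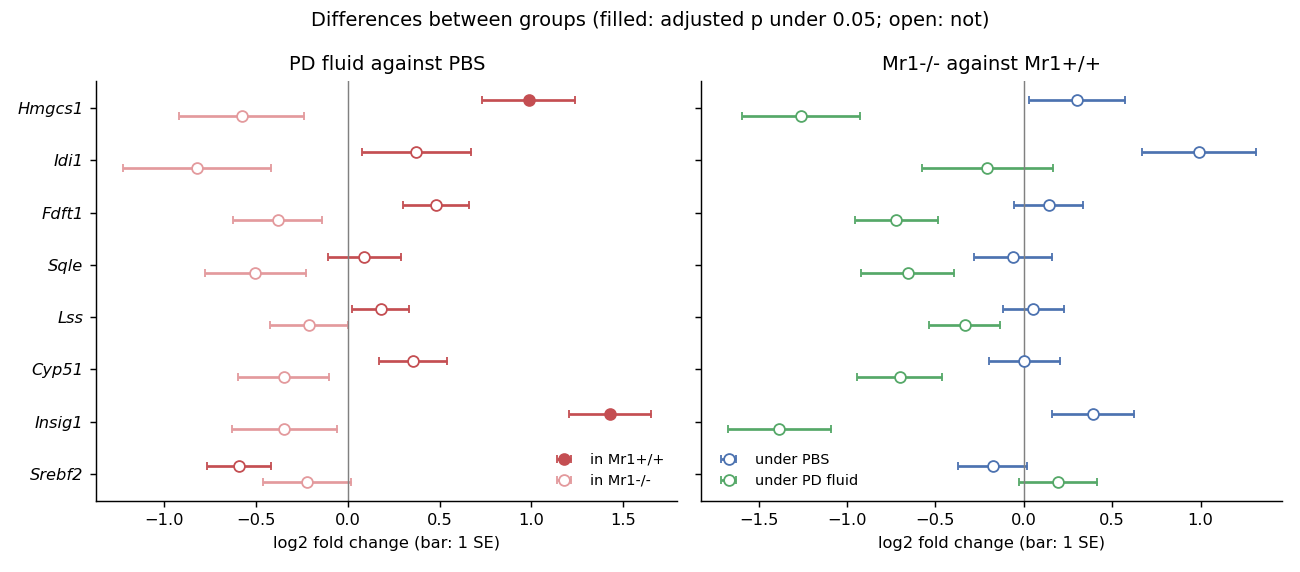
Log2 fold change of each gene, with bars of 1 SE, for PD fluid against PBS in Mr1+/+ and Mr1-/- (left) and for Mr1-/- against Mr1+/+ under PBS and under PD fluid (right), with filled points past the threshold. On the left, the 7 members with positive values in Mr1+/+ (up to 1.43 for Insig1) all have negative values in Mr1-/- (down to -0.82 for Idi1), and the Mr1-/- values rest on 1 sample on PD fluid.

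Members were not all alike in their course across the 8 samples. The measure of likeness was the root mean square difference between log2 CPM values centred on each gene's mean, where 0 is an identical course. The closest pair of members was Fdft1 and Cyp51 at 0.077, both enzymes downstream of mevalonate. Insig1 and Hmgcs1 were at 0.254, and the farthest pair was Insig1 and Srebf2 at 0.878. Against the mean course of all 8, Fdft1 was closest at 0.079, followed by Cyp51 at 0.114 and Lss at 0.116, with Srebf2 farthest at 0.469. Of 10312 genes with a mean of at least 10 CPM, the 6 outside the set closest to that mean course were Klhl8 (0.063), Aktip (0.086), Ndufaf1 (0.088), Cyp20a1 (0.096), Rtn3 (0.104) and Esd (0.105). Of the members, which are part of that mean course, Fdft1 alone lay within the range of these 6.

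Few other genes of the synthesis route passed the test in Mr1+/+ on PD fluid. Of 14 other enzymes tested, 1 rose, 1 fell and 12 did not pass, with a median log2 fold change of 0.34. These counts were near the shares over all genes tested, of which 8.49% were called higher and 6.37% lower. Acat2, a thiolase that joins acetyl-CoA units at the entry to the route, had 39.9 to 40.6 CPM on PBS and 64.9 to 86.2 CPM on PD fluid (0.95, SE 0.16, adjusted p = 0.0137). Lbr, a sterol reductase that also sits in the nuclear envelope, fell (-0.68, SE 0.17, adjusted p = 0.0336). Without Mr1+/+ PD fluid replicate 2 Lbr was at -0.63 (adjusted p = 0.107).

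Among 10 other genes of SREBP processing and of sterol-regulated protein degradation, 1 rose and 1 fell, with a median of -0.063. That, too, was near the shares of all genes called (8.49% higher and 6.37% lower). Srebf1, whose product drives mainly fatty acid synthesis, rose from 195 to 207 CPM on PBS to 333 to 351 CPM on PD fluid (0.77, SE 0.13, adjusted p = 0.0142), the sign opposite to that of Srebf2. In Mr1-/- Srebf1 had 217 to 228 CPM on PBS and 289 to 303 CPM on PD fluid, without a call. Rnf145, a ubiquitin ligase, fell (-0.59, SE 0.16, adjusted p = 0.0481), but passed neither without Mr1+/+ PBS replicate 2 (-0.56), nor without Mr1+/+ PD fluid replicate 1 (-0.64), nor without either Mr1-/- PBS library (-0.59). Scap (-0.26, adjusted p = 0.19) and Insig2 (0.39, adjusted p = 0.11), the partner and the relative of Insig1, did not pass.

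Among genes for taking up, exporting and storing sterols, those called in the fit reported were all higher, beside 8.49% of all genes tested. As sets they did not all rise in Mr1+/+ on PD fluid. Fitted changes were below 0 for 7 of 10 uptake and transport genes (median -0.27). The same held for 4 of 8 efflux genes (median 0.17) and 2 of 6 ester genes (median 0.35). DESeq2 also called 1 uptake gene and 1 efflux gene lower. Of 10 uptake and transport genes 2 rose, the HDL receptor Scarb1 (0.80, adjusted p = 0.0266) and Npc2, which hands cholesterol out of lysosomes (0.73, adjusted p = 0.0357). Of 8 efflux genes 2 rose, the oxysterol receptor gene Nr1h3 (0.83, adjusted p = 0.0142) and Apoe (0.69, adjusted p = 0.0417). Of 6 ester genes 2 rose, Ces1d (1.62, adjusted p = 0.0129) and the lipase Lipe (1.31, adjusted p = 0.0142), and Lipe is also on the adipocyte list. Apoe and Npc2 missed the threshold without Mr1+/+ PBS replicate 3 (0.65 for each, adjusted p = 0.099 and 0.086) and also without either Mr1-/- PBS library (0.68 for Apoe and 0.73 for Npc2 in both fits).

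Fatty acid synthesis, the sister route under Srebf1, had 6 of 13 genes called higher and a median of 1.17, beside 2 of 8 and 0.36 for the sterol members. Of all genes tested, 8.49% were called higher. The 6 were Me1 (2.12), Scd1 (2.05), Thrsp (1.95), Acss2 (1.17), Mlxipl (1.03) and Fads1 (0.76), all log2 fold changes past the threshold. Acss2 was not called without Mr1+/+ PBS replicate 3 (1.32, adjusted p = 0.069). Without Mr1+/+ PD fluid replicate 3 none of the genes on these 6 lists was called, and without replicate 2 the calls left were Ces1d and Thrsp. Srebf1 was then at 0.75 (adjusted p = 0.065) and 0.78 (adjusted p = 0.052), and Acat2 at 0.86 (adjusted p = 0.061) and 0.93 (adjusted p = 0.053). With the adipocyte score as a covariate none of the genes called on the 6 lists passed, and 5 of them turned sign: Ces1d (-0.14), Lipe (-0.24), Scarb1 (-0.08), Mlxipl (-0.05) and Lbr (0.44). Lipe is itself part of that score. Because the score did not overlap between the groups compared, no conclusion is drawn from the lost calls or turned signs. The difference between these lists was not tested. None of the genes on the 6 lists passed in the other 4 comparisons.

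**Figure D4:**
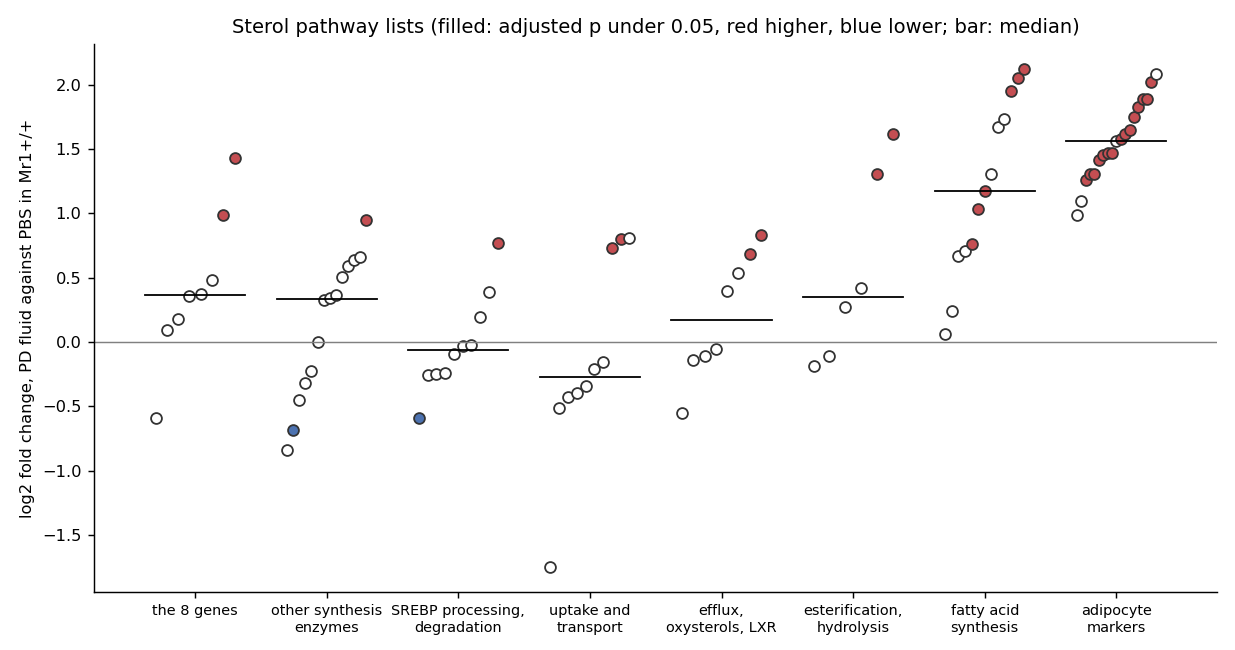
Log2 fold change of every tested gene for PD fluid against PBS in Mr1+/+, with 1 point per gene and 1 column per list (adipocyte markers last), the called genes filled and a bar at the median of the list. The medians run from -0.27 for uptake and transport to 1.17 for fatty acid synthesis and 1.56 for the adipocyte markers, with 0.36 for the members.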

How the data were processed

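The authors deposited whole-number read counts per gene symbol for 10 libraries, not normalized. Libraries were made from poly-A RNA with random priming, per the labels' protocols, which name neither strand marking nor molecular identifiers, so a count can include PCR copies. Per the submitters' processing notes the genome was mm10. Aligner and counter: not given in the sources used here. Of the symbols, 97.0% matched GENCODE M21, which gave coordinates and lengths.

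Rows of the same symbol were summed, and so were the near-identical libraries. edgeR 4.0.16 (R 4.3.3) was used with filterByExpr, TMM scaling and robust quasi-likelihood tests in 1 fit of 4 groups, with 4 residual degrees of freedom before shrinkage. P-values were adjusted over the 15385 genes tested by the Benjamini-Hochberg method, with a threshold of 0.05. CPM values use TMM library sizes. DESeq2 1.42.0, each left-out library, 10 separate libraries and the other alternatives are given in the closing section. The scripts were tested on simulated data.

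The members and gene lists were chosen with earlier results of these data known. Genes named are the 8 members, in each other list the called genes (up to 8), Srebf1, Scap, Insig2 and the 6 genes most like the members. Some genes of these lists are not reported here and were left out of the list counts. Cell type lists are given by their counts, summed levels and defining markers.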

Additional observations from a re-analysis of the deposited data

Results flagged for a closer look

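Hmgcs1, Fdft1, Cyp51 and Insig1 are listed here because every Mr1+/+ sample on PD fluid lay above the Mr1+/+ PBS samples while the Mr1-/- PD fluid sample lay below the Mr1-/- PBS samples. Each part of this pattern was common: 25% of all genes tested met the first and 27.9% the second. The share of all genes that met both was not counted, so how unusual the pattern is was not tested. The difference of the PD fluid effects, Mr1-/- minus Mr1+/+ on the log2 scale, was -1.78 for Insig1 (edgeR adjusted p = 0.266), -1.56 for Hmgcs1 (adjusted p = 0.272), -0.86 for Fdft1 (adjusted p = 0.319) and -0.70 for Cyp51 (adjusted p = 0.381). None of the 4 passed that test, and Mr1-/- on PD fluid is 1 sample.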

How the results depend on the processing

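Of 18 settings, Insig1 was called in Mr1+/+ on PD fluid in 16 and Hmgcs1 in 12. In the setting with an adipocyte score, the score did not overlap between the Mr1+/+ groups and included Lipe. With the adipocyte score as a covariate, no call for a member or for a named gene of the other 6 pathway lists held, and the sign turned for Hmgcs1 (-0.59), Ces1d (-0.14), Lipe (-0.24), Scarb1 (-0.08), Mlxipl (-0.05) and Lbr (0.44) among called genes and for Idi1 (-0.63), Lss (-0.19) and Srebf2 (0.34) among uncalled members. With 10 separate libraries, which understates the spread if a near-identical pair is 1 sample, 5549 genes and 5 members were called for PD fluid in Mr1+/+, 2 genes in Mr1-/-, 50 between genotypes under PBS, 3400 genes and 5 members under PD fluid, and 1490 genes and 3 members for the interaction, against 2286 and 2, 0, 2, 2 and 0, and 0 and 0 in the fit reported. DESeq2 called 3845, 11, 211, 1036 (2 members) and 488 genes (2 members) in the same order. Without a filter on low counts the genotype comparisons called 6 and 7 genes, and with only the groups compared 0 and 561 (2 members). The adipocyte covariate gave 73 genes and 0 members, 133, 31 and 54 genes, in Mr1+/+, between genotypes under PBS and PD fluid, and for the interaction.

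Leaving out each library gave 0 to 2751 genes and 0 to 4 members for PD fluid in Mr1+/+, 0 to 1 gene in Mr1-/-, 1 to 3 genes between genotypes under PBS, 0 to 33 under PD fluid and 0 to 1 for the interaction. Without Mr1+/+ PD fluid replicate 2, 339 genes were called, and without replicate 3 none. Leaving out both near-identical Mr1+/+ PBS libraries, an alternative chosen after seeing the data, left 1 member called.

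With the replicate number as a block, 5537 genes and 5 members were called for PD fluid in Mr1+/+, 2428 genes and 4 members between genotypes under PD fluid, and 1915 genes and 4 members for the interaction. The numbers were not shown to pair the samples: same-numbered Mr1+/+ samples had correlations of deviations of 0.092, -0.082 and 0.071, and not every sample correlated best with its own number. Srebf2 in Mr1+/+ passed with 10 libraries (-0.66), DESeq2 (-0.60) and the block (-0.65). The cause of these changes was not tested. With 2, 3, 2 and 1 samples, small differences in Sqle and Lss could not be resolved. Nor could larger fitted ones of Idi1, such as 0.99 between genotypes under PBS.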
